A study of Mus musculus with 2 samples.

Results

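The genes described were 10 components of the Notch pathway, chosen by name out of the 32285 genes of the mouse annotation: the receptors Notch1, Notch2, Notch3 and Notch4, the ligands Jag1, Jag2 and Dll1, and the targets Hes1, Hey1 and Heyl. All 10 were found in the gene list and all 10 are accounted for. Notch receptors are transmembrane proteins that bind Delta or Jagged ligands on a neighbouring cell, after which ADAM10 and gamma-secretase release the intracellular domain, which joins RBPJ in the nucleus and switches on genes of the Hes and Hey families. In the mammary epithelium the pathway is known for its part in luminal fate, in a bilayer where basal cells lie against luminal cells. In blood vessels Notch3 is the receptor of mural cells, while Notch1 and Notch4 act in endothelium.

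The data are a pair of droplet single-cell RNA libraries from mammary glands of wild-type adult female mice, given as 9-10 weeks old in one label and as 8 to 10 weeks old in the protocol. The Ctrl library came from mice whose treatment is given as control, with no agent named, and the CL library from mice injected intraperitoneally and repeatedly with clodronate liposomes, which kill the macrophages that take them up. Cells were sorted as CD31-TER119-, a gate that removes most endothelial and erythroid cells, and were stored before library construction. The number of mice pooled per library is not given in the sources used here, and with 1 library per group no difference between the libraries could be tested.

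The Ctrl library held 118743318 unique molecular identifiers (UMIs, each counting 1 captured RNA molecule) and the CL library 155765480. After filtering, 5937 and 8826 cells remained, with medians of 11351 and 10337 UMIs, and 12 barcodes were kept as cells in both libraries. Cells were grouped into 24 clusters without the Notch genes and named by marker genes, with "-like" marking a name that rests on markers alone. Macrophage markers went against the labels: the 12 markers summed to 97.8 CPM [95.7, 99.9] over all cells of the library labelled Ctrl and to 241 [239, 244] in the library labelled CL. By cell counts, the C1q-high macrophage-like class was 41 cells or 0.691% of the library labelled Ctrl and 43 cells or 0.487% of the library labelled CL. That share, unlike the summed markers, was lower in the library labelled CL, the direction that its label gives. Within that class the 12 markers, Lyz2 among them, summed to 15292 CPM in Ctrl and 15894 in CL. The gap over all cells was thus not seen within this class. A Lyz2-led myeloid cluster that was given no cell type had 18 and 211 cells, or 0.303% and 2.39%. Basal-like cells were 6.91% and 5.04%. The libraries are therefore called by their labels throughout. Levels are CPM, the UMIs of a gene per 1000000 UMIs of all genes in a class, and brackets after a level give its exact Poisson 95% interval. These intervals cover counting error only, not the spread between mice.

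7 named classes and 1 cluster left without a cell type, cluster 19, had enough cells for levels in both libraries and are called the 8 classes. They were basal-like (410 Ctrl and 445 CL cells), hormone-responsive-like luminal (2102 and 2596), secretory-like luminal (2645 and 3907), fibroblast-like (253 and 271), cluster 19 (37 and 44), endothelial-like (35 and 51), C1q-high macrophage-like (41 and 43) and T/NK-like (213 and 734). Each named class held UMIs of every marker on its list in both libraries, except 11 of 12 for the secretory-like class in Ctrl. For this 1 UMI was enough, and the clusters were named from the same lists, so it is no separate support for the names. Under the naming rule the T/NK-like clusters 14, 17 and 21 passed 10, 8 and 10 of 12 markers. The secretory-like clusters passed 10 or 11 of 12, the hormone-responsive-like ones 11 of 12, and the fibroblast-like clusters 7 and 22 passed 10 and 8 of 10. Cluster 19 passed 11 of 12 pericyte markers, but its 10 leading genes hold none of them and hold Acta2 and Myh11, contractile genes that stand on the basal list, and so it was given no cell type. In cluster 19 the basal keratin Krt5 was at 0 and 3.24 CPM and Krt14 at 18.6 and 13.0, beside 4756 and 4963 for Krt14 in basal-like cells. The basal marker Trp63 had 1 and 0 UMIs in cluster 19, while Acta2 was at 9130 and 9594 CPM. Apart from the contractile genes, these basal markers thus set cluster 19 apart from basal-like cells. Its level of the pericyte marker Rgs5 was 604 CPM [514, 704] in Ctrl and 107 [73.6, 150] in CL. Free RNA was read from droplets of 100 to 300 UMIs, and 5 luminal and milk genes in a class were compared with their level in those droplets. They stood at 9.05% and 9.01% of the droplet level in cluster 19, at 11.71% and 13.0% in the basal-like class, and at 29.5% and 52.9% in the endothelial-like class.

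Positions are given on the GRCm38 build. Among the receptors, Notch1 (ENSMUSG00000026923) spans chr2:26457903-26516663 on the minus strand, Notch2 (ENSMUSG00000027878) chr3:98013527-98150361 on the plus strand, Notch3 (ENSMUSG00000038146) chr17:32120820-32166852 on the minus strand and Notch4 (ENSMUSG00000015468) chr17:34564268-34588503 on the plus strand. For the ligands, Jag1 (ENSMUSG00000027276) spans chr2:137081456-137116644, Jag2 (ENSMUSG00000002799) chr12:112907819-112929776 and Dll1 (ENSMUSG00000014773) chr17:15367354-15376872, all on the minus strand. Of the targets, Hes1 (ENSMUSG00000022528) spans chr16:30064384-30067796 on the plus strand, Hey1 (ENSMUSG00000040289) chr3:8663359-8667256 on the minus strand and Heyl (ENSMUSG00000032744) chr4:123233556-123249875 on the plus strand.

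The bases just before the start site are shown for Notch1 and Notch3, receptors that differed in level between secretory-like cells, endothelial-like cells and cluster 19, and for Jag1 and Dll1, ligands that basal-like cells shared while hormone-responsive-like cells carried Jag1. The sequences are from RefSeq on GRCm38.p6, 5′ to 3′ on the minus strand, with bases of annotated exons left off. Capitals mark the GC box GGGCGG read on either strand, a motif known to be bound by SP1.
Notch1, chr2:26503825-26504072, a start inside the annotated gene span: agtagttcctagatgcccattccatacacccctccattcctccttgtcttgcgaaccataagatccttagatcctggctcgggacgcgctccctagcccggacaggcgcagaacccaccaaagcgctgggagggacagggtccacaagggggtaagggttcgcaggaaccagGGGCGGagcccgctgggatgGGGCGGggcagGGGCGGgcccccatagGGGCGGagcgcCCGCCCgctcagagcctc
Notch3, chr17:32166891-32167140: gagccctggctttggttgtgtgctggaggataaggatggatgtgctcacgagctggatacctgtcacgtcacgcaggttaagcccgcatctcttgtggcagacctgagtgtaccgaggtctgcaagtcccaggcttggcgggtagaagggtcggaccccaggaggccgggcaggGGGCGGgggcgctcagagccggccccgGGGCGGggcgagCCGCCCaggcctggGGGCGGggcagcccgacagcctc
Jag1, chr2:137116645-137116770: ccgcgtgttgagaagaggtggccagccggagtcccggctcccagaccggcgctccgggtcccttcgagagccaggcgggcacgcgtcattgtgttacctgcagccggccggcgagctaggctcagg
Dll1, chr17:15376933-15377182, the second of its starts: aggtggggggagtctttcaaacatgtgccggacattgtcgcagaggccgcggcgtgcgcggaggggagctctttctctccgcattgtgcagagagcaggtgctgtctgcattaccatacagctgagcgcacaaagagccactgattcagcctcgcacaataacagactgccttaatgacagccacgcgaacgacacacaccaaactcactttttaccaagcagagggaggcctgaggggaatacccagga

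The windows were of up to 250 bases, and with exon bases left off those of Notch1, Notch2, Notch4 and Jag1 held 248, 239, 223 and 126. Letters were matched over the full 250 bases before each start, exon bases included, for the members and for all promoters. On either strand GGGCGG occurred there in 4 of the 7 members found in the promoter table. Those were Notch1, Notch2, Notch3 and Jag2, beside 32.7% of all 32851 promoters. The Jag2 matches, 132 to 3 bases before its start, all lay in the stretch that leaving off exon bases would remove. The RBPJ core letters TGGGAA were in none of the 7 windows and in 21.6% of all promoters, and the Hes and Hey E-box CACGTG was in none of the 7 and in 6.02%. The GC content was 66.1% for Notch1, 68.8% for Notch3, 70.6% for Jag1 and 56.0% for Dll1, beside a median of 52.4% over all promoters. These matches are descriptions of letters in short windows. Hes1, Hey1 and Heyl were not matched.

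The receptors were compared first, to ask which cell types carry each of them. Among the named classes and cluster 19, Notch1 stood highest in endothelial-like cells, overlapping cluster 19 in CL. Within the epithelium it stood highest in secretory-like luminal cells. Notch2 was spread over stromal, immune and secretory-like cells, Notch3 was concentrated in cluster 19 and was shared by both luminal classes, and Notch4 had few UMIs in all of them.

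Notch1 was at 112 CPM [109, 116] in Ctrl and 103 [99.6, 106] in CL in secretory-like luminal cells. It was at 37.2 [35.4, 39.0] and 34.1 [32.5, 35.8] in hormone-responsive-like cells and at 35.7 [29.99, 42.3] and 30.4 [24.5, 37.3] in basal-like cells. The secretory-like level was thus 3.02-fold [2.85, 3.21] that of hormone-responsive-like cells in Ctrl and 3.01-fold [2.84, 3.18] in CL, while the other two epithelial classes overlapped. Endothelial-like cells were at 281 [206, 373] and 220 [179, 269], from 47 and 97 UMIs, 2.50-fold [1.83, 3.33] and 2.15-fold [1.74, 2.63] the secretory-like level. The droplets were at 48.1 and 42.3 CPM, below the endothelial-like and secretory-like levels. Fibroblast-like cells, at 50.1 and 43.9, and T/NK-like cells, at 43.4 and 53.6, were near the droplet level, but their free RNA bounds were lower, at 4.90 and 5.73 CPM and at 4.14 and 4.20. Cluster 19 was at 59.6 [34.1, 96.9] and 149 [109, 199], and its interval overlapped that of endothelial-like cells in CL but not in Ctrl. Macrophage-like cells are given with the ratios.

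Among the 8 classes Notch2 was highest in fibroblast-like cells and cluster 19, and the Lyz2-led cluster, which is not among them, was higher, at 258 CPM [172, 373] and 105 [90.1, 122], the latter overlapping both of them. Fibroblast-like cells were at 124 CPM [109, 140] in Ctrl and 80.1 [67.0, 94.9] in CL, and cluster 19 was at 74.6 [45.5, 115] and 93.99 [62.9, 135]. The class with the highest Notch2 level changed from fibroblast-like cells in Ctrl to cluster 19 in CL, and their intervals overlapped in both libraries. In the epithelium Notch2 was at 51.1 [48.6, 53.7] and 36.5 [34.7, 38.3] in secretory-like cells, and the level in hormone-responsive-like cells was 20.96 and 21.3, so that the secretory-like level was 2.44-fold [2.24, 2.65] higher in Ctrl and 1.71-fold [1.58, 1.85] in CL. Basal-like cells were close to the latter, at 24.2 and 26.7, and the droplets were at 17.9 and 14.1. T/NK-like cells were at 53.5 and 46.3, macrophage-like cells at 33.0 and 29.7 and endothelial-like cells at 11.9 and 18.2.

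Notch3 reached 775 CPM [674, 888] in Ctrl and 729 [637, 831] in CL in cluster 19, from 208 and 225 UMIs. That was 20.5-fold [17.6, 23.8] and 18.9-fold [16.4, 21.8] the level of secretory-like cells, the next highest of the 8 classes, and no other class overlapped it. Both luminal classes held Notch3 near the same level, 37.8 [35.7, 40.1] and 38.5 [36.7, 40.4] in secretory-like cells beside 36.2 [34.4, 38.02] and 33.2 [31.6, 34.9] in hormone-responsive-like cells. The basal-like class was far below, with 7 UMIs or 1.84 CPM [0.74, 3.79] in Ctrl and 13 UMIs or 4.34 [2.31, 7.42] in CL. Free RNA alone could bring 4.78 and 4.29 CPM there, so Notch3 in basal-like cells was not separable from that background. The other classes were low too, at 8.17 and 4.21 CPM in fibroblast-like, 11.9 and 13.6 in endothelial-like, 5.99 and 0 in macrophage-like and 4.61 and 3.92 in T/NK-like cells. The same bound does not reach the luminal levels: judged by Jag1, at most 10.9% and 17.8% of the droplet level was free RNA in secretory-like cells, worth 4.45 and 5.87 CPM of Notch3.

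Notch4 gave 77 UMIs over all retained Ctrl cells and 136 over all CL cells, or 0.894 and 1.16 CPM. The droplets were at 1.18 and 1.08 CPM. Endothelial-like cells had 1 and 4 UMIs, or 5.97 CPM [0.15, 33.3] and 9.09 [2.48, 23.3], the highest of the 8 classes in both libraries, with intervals that overlapped those of other classes. Notch4 was at 1.06 [0.777, 1.41] and 1.09 [0.817, 1.43] in hormone-responsive-like cells, where free RNA could bring at most 0.178 and 0.250 CPM as judged by Hey1. In secretory-like cells it was at 0.719 [0.451, 1.09] and 1.33 [1.01, 1.72], beside bounds of 0.128 and 0.193 CPM as judged by Jag1.

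**Figure D1:**
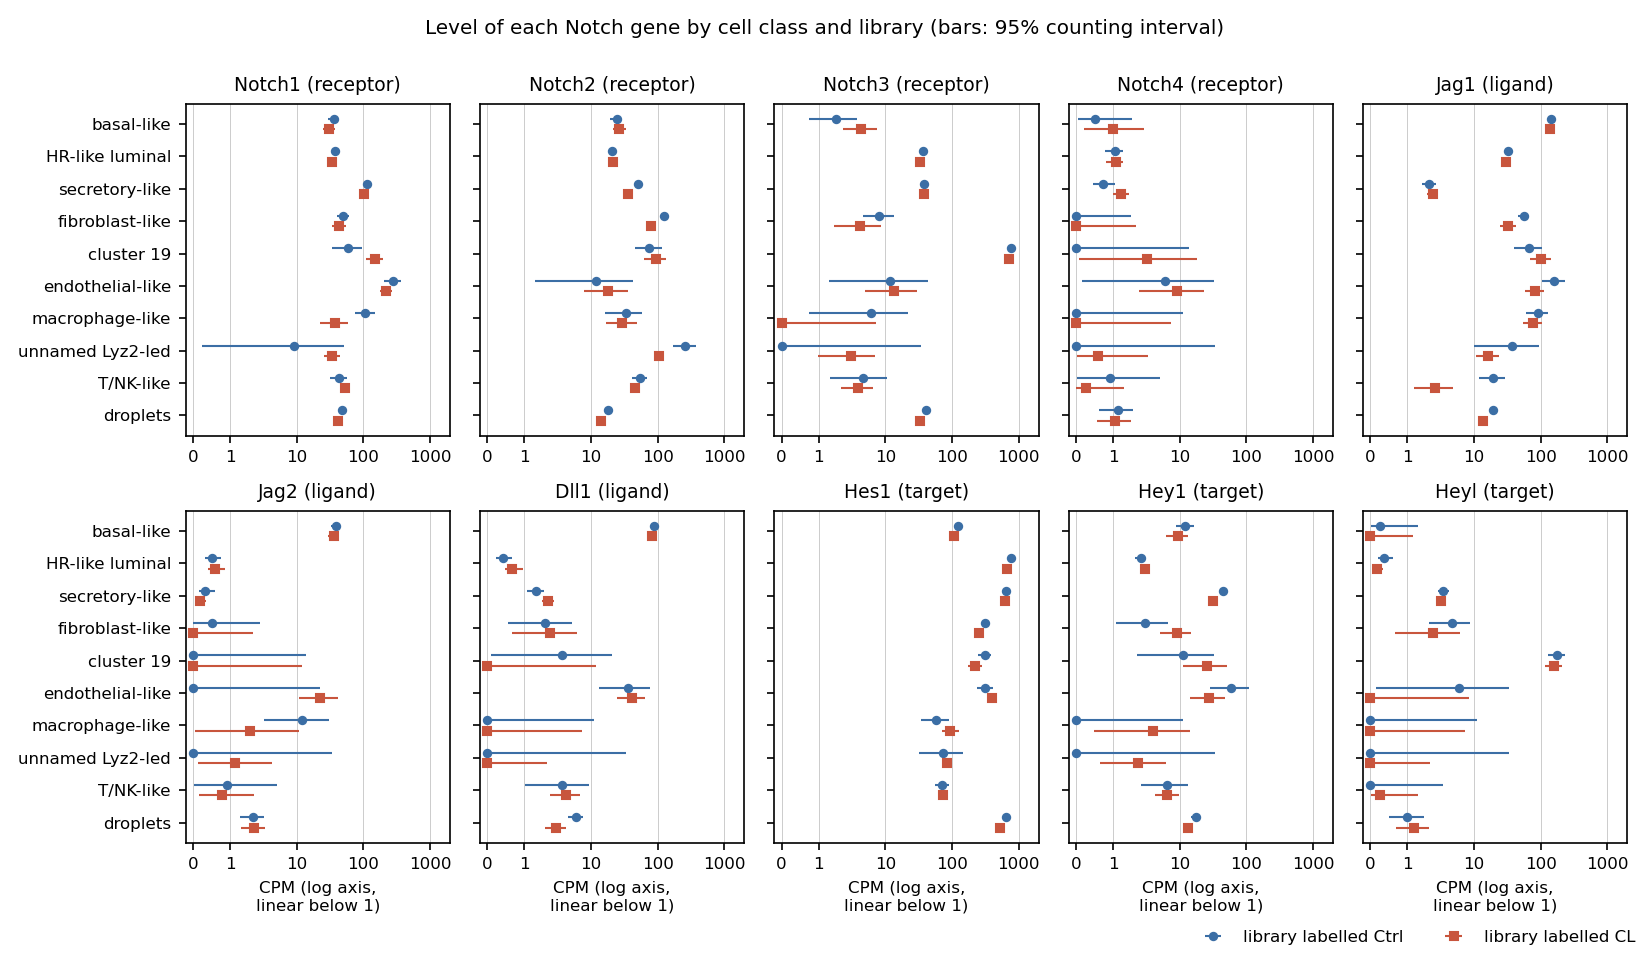
Level of each of the 10 genes (CPM, log axis, linear below 1) in the 8 classes, in an unnamed Lyz2-led cluster and in the droplets that give the free RNA background, with circles for Ctrl and squares for CL. Bars are exact Poisson 95% intervals, for counting error only, and Notch3 and Heyl peak in cluster 19, at 775 and 175 CPM in Ctrl, while Dll1 peaks in basal-like cells, at 88.8.

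The ligands were compared next. All 3 were present in basal-like cells, and outside that class they parted: Jag1 was also carried by hormone-responsive-like luminal, fibroblast-like, endothelial-like and macrophage-like cells and by cluster 19, whereas Jag2 and Dll1 were at most 2.30 CPM in both luminal classes. Secretory-like luminal cells, which had the highest epithelial Notch1, were low in all 3.

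Jag1, which presents a Jagged ligand to neighbouring receptors, was at 145 CPM [133, 158] in Ctrl and 140 [127, 154] in CL in basal-like cells. It was at 32.8 [31.1, 34.5] and 29.8 [28.3, 31.4] in hormone-responsive-like cells and at 2.12 [1.64, 2.71] and 2.41 [1.97, 2.92] in secretory-like cells. The 3 epithelial classes did not overlap in either library: basal-like cells were 4.42-fold [4.00, 4.88] and 4.70-fold [4.21, 5.25] above hormone-responsive-like cells, and these were 15.4-fold [12.0, 20.1] and 12.4-fold [10.1, 15.2] above secretory-like cells. Since the droplets held 19.5 and 13.5 CPM, the secretory-like level was below that of free RNA. The hormone-responsive-like level was above its own bound of 2.94 and 3.13 CPM, taken from Hey1, a gene that class nearly lacks.

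Outside the epithelium, Jag1 was at 161 CPM [106, 235] and 81.8 [57.3, 113] in endothelial-like cells, at 89.9 and 77.2 in macrophage-like cells, at 67.1 and 100 in cluster 19 and at 56.2 [46.2, 67.7] and 32.5 [24.4, 42.4] in fibroblast-like cells. Endothelial-like cells led in Ctrl and basal-like cells in CL, where cluster 19, at 100 [68.3, 143], overlapped them. The intervals of endothelial-like and basal-like cells overlapped in Ctrl. T/NK-like cells were at 19.4 CPM [12.0, 29.6] in Ctrl, from 21 UMIs in 12 of 213 cells, and at 2.61 [1.253, 4.81] in CL, from 10 UMIs in 8 of 734 cells, beside free RNA bounds of 1.68 and 1.34. That is a log2 ratio of -2.89 [-4.14, -1.74], on fewer than the 50 UMIs that the ratios further on require. The class pools clusters 14, 17 and 21, with 76, 77 and 60 Ctrl cells and 283, 379 and 72 CL cells. The part of this mix in the ratio was not tested.

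Jag2 was at 38.6 CPM [32.6, 45.4] in Ctrl and 36.0 [29.6, 43.5] in CL in basal-like cells, from 147 and 108 UMIs. Hormone-responsive-like cells were at 0.507 and 0.597 and secretory-like cells at 0.327 and 0.184, below the 2.18 and 2.25 CPM of the droplets. The basal-like level was 76.1-fold [48.4, 125] and 60.4-fold [39.8, 94.4] that of hormone-responsive-like cells. Endothelial-like cells had no Jag2 UMI in Ctrl, which allows up to 22.0 CPM, and 10 UMIs or 22.7 [10.9, 41.8] in CL, overlapping the basal-like level there.

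Among the epithelial classes Dll1 was highest in basal-like cells, at 88.8 CPM [79.6, 98.8] in Ctrl and 82.4 [72.5, 93.4] in CL. Hormone-responsive-like cells held 18 and 33 UMIs, or 0.415 and 0.679 CPM, and secretory-like cells 46 and 100 UMIs, or 1.504 and 2.30. The basal-like level was 214-fold [133, 365] and 121-fold [84.2, 180] the former and 59.1-fold [43.3, 82.2] and 35.9-fold [28.4, 45.8] the latter. Endothelial-like cells followed at 35.8 and 40.9 CPM, from 6 and 18 UMIs, and did not overlap the basal-like interval. C1q-high macrophage-like cells had no Dll1 UMI in either library, which allows up to 11.1 and 7.30 CPM. In secretory-like cells Dll1, low as it was, lay above free RNA bounds of 0.642 and 0.530 CPM, as judged by Jag1. Those cells held 10.7% and 23.1% of all Dll1 UMIs. In hormone-responsive-like cells Dll1 did not exceed its bounds of 0.890 and 0.688 CPM, as judged by Hey1.

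Basal-like cells made up 4.42% of the UMIs of retained Ctrl cells and 2.55% of those of CL cells. They nevertheless held 78.8% and 57.2% of all Dll1 UMIs and 78.2% and 64.7% of all Jag2 UMIs. For Jag1 they held 23.0% and 16.9%, while the far more numerous hormone-responsive-like cells held 59.2% and 58.4%.

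To compare shares of cells at 1 depth, each cell was thinned to 2000 UMIs, which left 401 basal-like cells in each library and dropped 9 Ctrl and 44 CL cells. Intervals of shares are exact Clopper-Pearson 95% intervals, for counting error only. A Jag1 UMI was found in 22.6% [18.7, 27.1] of Ctrl and 17.3% [13.6, 21.3] of CL basal-like cells, a Dll1 UMI in 15.5% [12.1, 19.4] and 16.1% [12.7, 20.2], and a Jag2 UMI in 7.60% and 7.18%. In T/NK-like cells, set beside them for comparison, the thinned shares were 2.97% and 0.518% for Jag1, 0.735% and 0.609% for Dll1 and 0.0954% and 0.109% for Jag2. The basal-like share was the higher one for all 3 ligands in both libraries. The Jag1 level of T/NK-like cells in Ctrl was above its free RNA bound, so that its share is not a measure of free RNA.

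Without thinning, the basal-like shares were 54.1% and 36.4% for Jag1, 44.1% and 34.4% for Dll1 and 26.1% and 20.2% for Jag2, at median depths of 8023 UMIs in Ctrl and 5824 in CL, and T/NK-like cells, at medians of 4872 and 4458, gave 5.63% and 1.09%, 1.88% and 1.499%, and 0.469% and 0.409%. The gap between the libraries seen without thinning was thus narrower for Jag1 and absent for Dll1 at equal depth.

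At 2000 UMIs, 40.0% [35.1, 44.9] of Ctrl and 36.0% [31.2, 40.8] of CL basal-like cells had at least 1 of the 3 ligands. Cells with exactly 1 ligand were 34.6% and 31.6%, cells with 2 were 5.11% and 4.28%, and cells with all 3 were 0.313% and 0.130%. Dll1 was found in 13.1% [7.004, 21.9] of Ctrl basal-like cells with Jag1 and in 16.2% [12.2, 20.7] of those without it, and in 12.6% [6.14, 23.3] and 16.8% [13.0, 21.3] in CL. The intervals overlapped, so no joint or exclusive use of Jag1 and Dll1 by single cells was detectable at this depth.

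**Figure D2:**
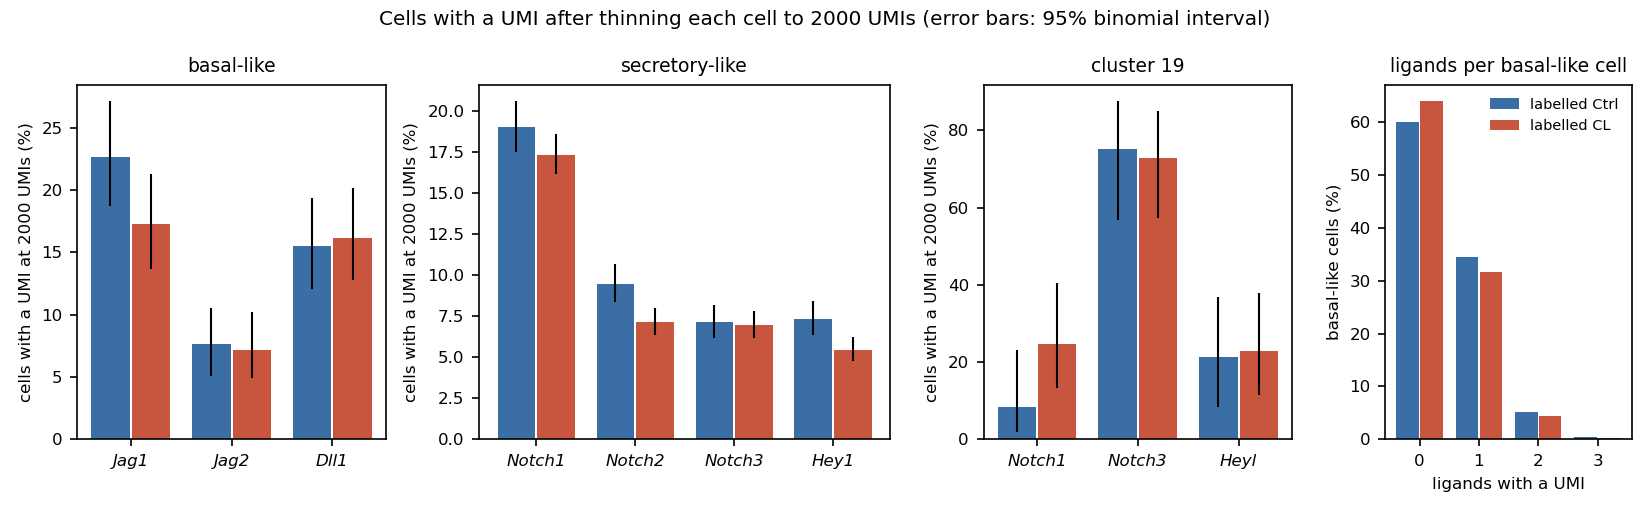
Share of cells (%) with at least 1 UMI after thinning every cell to 2000 UMIs, for the ligands in basal-like cells, 4 genes in secretory-like cells and 3 genes in cluster 19, and the share of basal-like cells with 0 to 3 of the ligands, blue for Ctrl and red for CL. Error bars are 95% binomial intervals for counting error only, and the last panel has none. In it, cells with exactly 1 ligand outnumber those with more in both libraries. Low detection of each ligand at this depth gives that order by itself, so it does not show how many ligands a cell uses.

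The targets were compared to see which classes carry transcripts that Notch activity is known to raise. Hes1 was high in both luminal classes and low in basal-like cells, Hey1 was highest, within the epithelium, in secretory-like cells, and Heyl had its highest level in cluster 19. Each of the 3 is a basic helix-loop-helix repressor that answers to other signals too.

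Hes1 was at 759 CPM [751, 767] in Ctrl and 678 [670, 685] in CL in hormone-responsive-like cells and at 654 [645, 663] and 617 [610, 625] in secretory-like cells. It was at 124 [113, 135] and 107 [96.1, 120] in basal-like cells, so that the 2 luminal classes were 6.13-fold [5.60, 6.73] and 5.28-fold [4.82, 5.8] above basal-like cells in Ctrl and 6.30-fold [5.65, 7.06] and 5.74-fold [5.15, 6.43] in CL. The luminal classes differed little from each other, by 1.16-fold [1.14, 1.18] and 1.10-fold [1.08, 1.12]. Free RNA was rich in Hes1, at 648 and 521 CPM in the droplets, and could bring up to 75.9 and 67.9 CPM to the basal-like level, which is the larger part of it.

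Among the other classes Hes1 was at 317 and 393 CPM in endothelial-like cells, at 315 and 256 in fibroblast-like cells and at 309 and 220 in cluster 19. The free RNA bounds were 191 and 276, 66.1 and 70.7, and 58.6 and 46.9 CPM, so that most of the endothelial-like level could be free RNA while the fibroblast-like and cluster 19 levels exceeded it. T/NK-like cells were at 71.0 and 72.1 beside bounds of 55.8 and 51.8.

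Hey1 was at 44.4 CPM [42.1, 46.8] in Ctrl and 31.5 [29.9, 33.2] in CL in secretory-like cells, from 1359 and 1372 UMIs. Basal-like cells were at 12.1 and 9.35 and hormone-responsive-like cells at 2.63 and 3.05, and the secretory-like level was 16.9-fold [13.9, 20.6] and 10.3-fold [8.72, 12.3] the latter and 3.67-fold [2.74, 5.04] and 3.37-fold [2.32, 5.09] the former. The basal-like level was above its free RNA bounds of 2.04 and 1.71 CPM. Endothelial-like cells were at 59.7 [28.7, 110] and 27.3 [14.1, 47.6], overlapping secretory-like cells in both libraries. Cluster 19 was at 11.2 and 25.9, fibroblast-like cells at 3.07 and 9.03, T/NK-like cells at 6.46 and 6.53 and the droplets at 17.4 and 13.2. Secretory-like cells held 82.5% and 75.1% of all Hey1 UMIs. At 2000 UMIs a Hey1 UMI was found in 7.30% [6.34, 8.39] and 5.43% [4.73, 6.19] of them, against 24.0% and 20.6% without thinning. The thinned share was 0.511% and 0.558% in hormone-responsive-like cells and 1.04% and 1.12% in T/NK-like cells.

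Heyl was at 175 CPM [129, 233] in Ctrl and 159 [117, 210] in CL in cluster 19. These levels rest on 47 UMIs in 18 of 37 cells, the fullest with 11, and on 49 UMIs in 21 of 44 cells, the fullest with 13. Secretory-like cells were at 3.46 [2.84, 4.19] and 3.24 [2.72, 3.82], so that cluster 19 was 50.6-fold [35.1, 71.9] and 49.1-fold [34.7, 68.4] higher. The secretory-like level, low as it was, was 9.39-fold [5.52, 17.0] and 17.5-fold [8.95, 39.0] that of hormone-responsive-like cells and above the droplets, at 0.998 and 1.26. Because that class is large, it held 57.3% and 62.4% of all Heyl UMIs and cluster 19 held 25.4% and 21.7%.

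Receptors and targets were then read together within a class. Cluster 19 joined the highest Notch3 and Heyl, and at 2000 UMIs 75.0% [56.7, 87.5] of its 35 Ctrl cells and 72.8% [57.2, 85.0] of its 44 CL cells had a Notch3 UMI, and 21.4% [8.44, 36.9] and 22.9% [11.5, 37.8] a Heyl UMI. Without thinning these were 91.9% and 93.2% for Notch3 and 48.6% and 47.7% for Heyl, and the thinned Notch3 share of T/NK-like cells was 0.830% and 0.762%. Secretory-like and endothelial-like cells both had Notch1 with Hey1. In secretory-like cells a Hey1 UMI was found in 9.46% [6.94, 12.3] of Ctrl cells with Notch1 and 6.79% [5.74, 7.95] of those without, and in 7.12% [5.25, 9.30] and 5.07% [4.34, 5.90] in CL. Both libraries gave the same direction, with overlapping intervals.

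For 7 of the 10 genes the class with the highest level, among the 8, was the same in both libraries. The exceptions were Notch2, Jag1 and Hey1, whose leading classes overlapped in at least 1 library. Over the 16 class and library points, which share 2 libraries and their depths, log2(CPM + 1) of Notch3 and Heyl correlated at Pearson 0.84, the highest value of any pair of members. Notch1 and Notch4 followed at 0.70, Notch4 and Hey1 at 0.63 and Jag2 and Dll1 at 0.62, where the pairs with Notch4 rest on its few UMIs.

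The genes whose pattern over those 16 points was most like a member were searched among all genes of at least 20 CPM in some class of both libraries. For Heyl they were Cox4i2, Olfr558 and Rgs4, at 0.97, 0.96 and 0.95, and for Notch3 they were Malat1, Ldb3 and Hey2, at 0.90, 0.89 and 0.87. Hes1 was most like Anxa1, Mmp15 and H1f0, at 0.97, 0.93 and 0.93, and Hey1 most like Cdc42ep3, Tspan8 and Nop14, at 0.94, 0.87 and 0.87. For Dll1 they were St8sia6, Adamts18 and Tnrc18, at 0.93, 0.93 and 0.91, for Jag2 Oxtr, Marcksl1 and Ltbp2, at 0.88, 0.87 and 0.82, and for Jag1 Socs3, Zfp703 and Scarb2, at 0.88, 0.85 and 0.84. Notch1 was most like Hipk1, Rapgef5 and Scarf1, at 0.88, 0.87 and 0.87, Notch2 most like Btaf1, Mturn and Mapk8ip3, at 0.90, 0.89 and 0.86, and Notch4 most like Dll4, Rnd1 and Clic5, at 0.91, 0.88 and 0.88. The Notch4 values rest on few UMIs, with 1 and 4 in its highest class, the endothelial-like one.

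The 2 libraries were then set side by side within each class, to ask whether the Notch genes differed between the glands labelled Ctrl and CL. A ratio is log2 of the CL level over the Ctrl level with an exact binomial 95% interval for counting error, and genes with at least 50 UMIs in the 2 libraries together were counted. The members past 1.5-fold are given class by class, each beside the share of all genes of that class. The median ratio of the members counted, beside that of all genes counted, was 0.03 and -0.03 in hormone-responsive-like cells, -0.08 and -0.04 in secretory-like cells, -0.46 and -0.03 in fibroblast-like cells and 0.02 and 0.01 in T/NK-like cells. It was -0.12 and 0.0046 in cluster 19, -0.35 and -0.02 in endothelial-like cells and -0.22 and 0.04 in macrophage-like cells.

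In basal-like cells 0 of 7 members passed 1.5-fold, beside 9.06% of 8387 genes. The ratio was -0.05 [-0.24, 0.14] for Jag1, -0.10 [-0.47, 0.27] for Jag2 and -0.11 [-0.35, 0.13] for Dll1. These intervals bound the ligand ratios, by counting error alone, within 1.5-fold. Hes1 was at -0.20 [-0.41, 0.00], Notch1 at -0.23 [-0.63, 0.16] and Hey1 at -0.37 [-1.10, 0.34]. The median over the 7 was -0.11 and that over all genes was -0.08.

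In hormone-responsive-like cells 1 of 9 members passed 1.5-fold, beside 7.37% of 13101 genes. It was Dll1, at 0.71 [-0.16, 1.63], with 18 Ctrl UMIs in 14 cells, 5 of them in 1 cell, and an interval that spans 0, and it passed under 10 of 13 alternative settings. Its levels of 0.415 and 0.679 CPM did not exceed the free RNA bounds of 0.890 and 0.688, so this ratio is not separable from background. The well counted members moved less, with Jag1 at -0.14 [-0.24, -0.03], Notch1 at -0.12 [-0.22, -0.02] and Hes1 at -0.16 [-0.19, -0.14]. The clusters of this class took unlike shares of the libraries: cluster 10 had 938 Ctrl and 119 CL cells, cluster 11 had 151 and 1065, cluster 1 had 584 and 1016 and cluster 2 had 343 and 339. The Hes1 ratio was negative in 3 of the 4 clusters, with levels of 815 and 655 CPM in cluster 1, 784 and 651 in cluster 10 and 924 and 729 in cluster 11, and turned in cluster 2, at 584 and 637. Jag1 was lower in CL in cluster 11, at 38.3 and 25.3 or -0.60 [-0.88, -0.31], and was at 39.7 and 43.4 in cluster 2.

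In secretory-like cells 2 of 9 members passed 1.5-fold, beside 7% of 12379 genes. They were both low in this class, Notch4 at 0.719 and 1.33 CPM and Dll1 at 1.504 and 2.30. Their ratios were Notch4 at 0.89 [0.16, 1.67], from 22 and 58 UMIs, and Dll1 at 0.61 [0.09, 1.15], from 46 and 100 UMIs in 43 and 92 cells. Notch4 passed under 13 of 14 alternative settings and Dll1 under 6 of 14, where it ranged from 0.42 to 0.85. Among members with higher levels, Hey1 was at -0.50 [-0.61, -0.39] and Notch2 at -0.49 [-0.59, -0.38], short of 1.5-fold, and Notch1 was at -0.13 [-0.20, -0.07], Notch3 at 0.03 and Hes1 at -0.08. The thinned shares, over 2584 and 3833 cells, went the same way, 7.30% and 5.43% for Hey1 and 9.47% [8.38, 10.7] and 7.15% [6.35, 8.01] for Notch2. The unthinned shares of Notch2 were 37.1% and 29.6%.

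The clusters of this class separated those differences. Among the 5 secretory-like clusters of at least 50 cells in each library, Notch2 was lower in CL in 5 of 5, at 44.6 to 55.3 CPM in Ctrl and 35.4 to 43.4 in CL, with an interval that spans 0 in cluster 5. Hey1 ranged from 17.6 to 82.5 in Ctrl and from 16.0 to 50.6 in CL and was lower in CL in 3 of 5, with an interval that spans 0 in cluster 9. Its widest gap was in cluster 8, at 82.5 and 48.5 CPM or -0.77 [-0.98, -0.56], while cluster 3, at 45.8 and 50.6, went the other way with an interval that spans 0. Cluster 8, led by Wfdc18, Ltf and Snorc, also had the highest Notch1 in both libraries, at 144 and 150 CPM, within ranges of 95.5 to 144 and 79.5 to 150. With the 5 clusters weighted equally, a calculation chosen after seeing the data, the ratio was -0.30 for Hey1, -0.38 for Notch2 and -0.16 for Notch1. Clusters 3 and 4 had 809 and 294 Ctrl cells and 451 and 1035 CL cells, and cluster 6, with 13 and 516 cells, was nearly all CL.

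**Figure D3:**
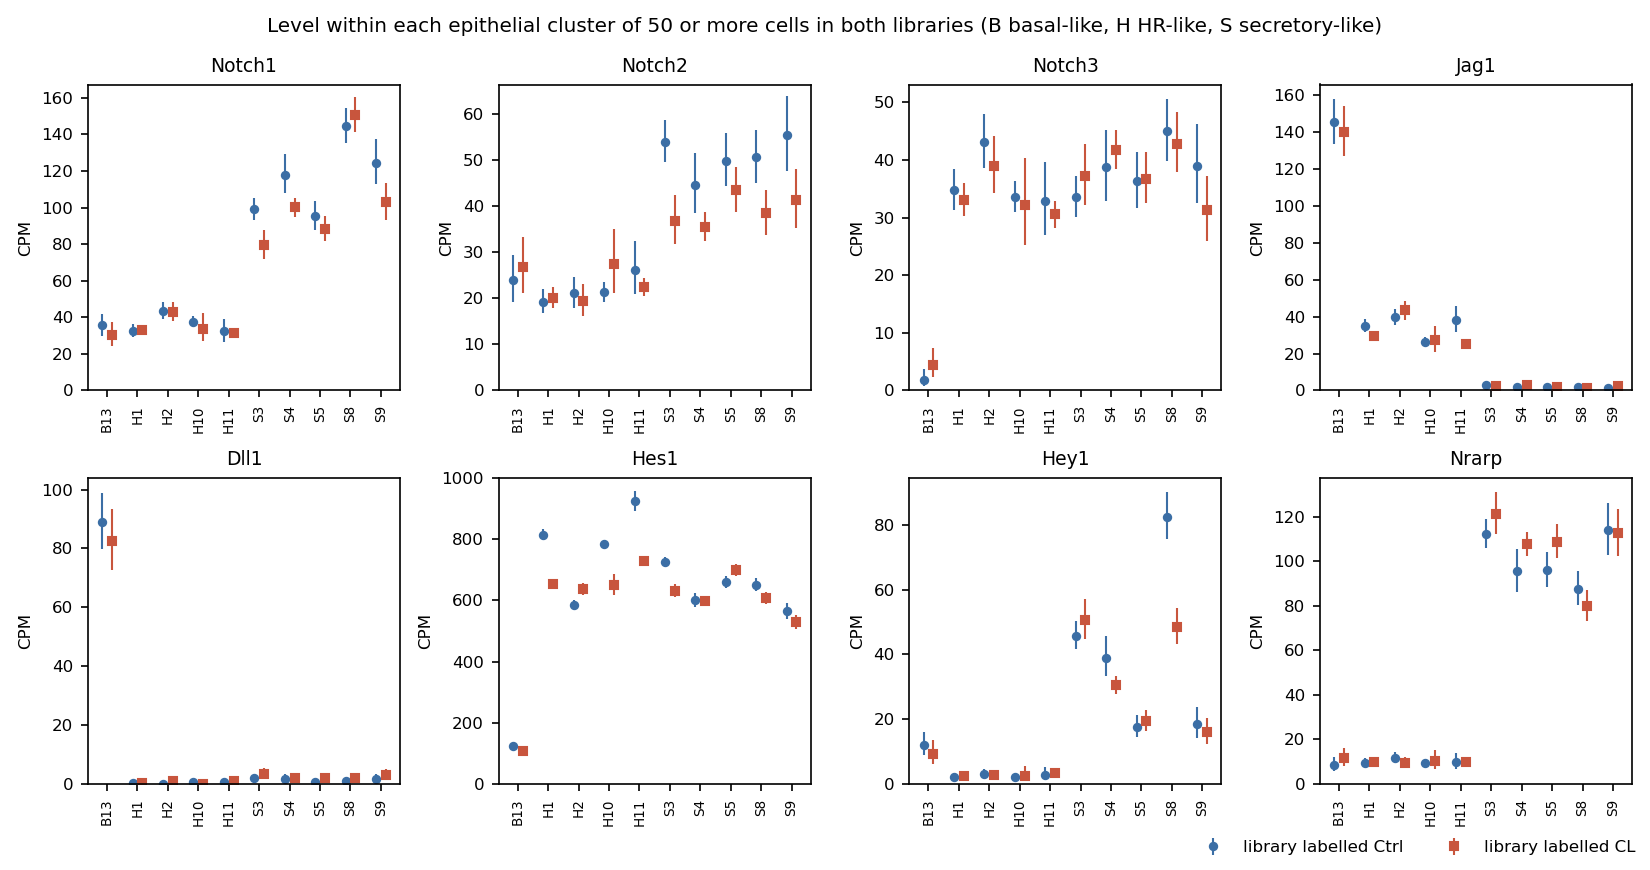
Level (CPM, linear axis from 0) of 7 members and Nrarp in each epithelial cluster of at least 50 cells in each library, by cluster number, with circles for Ctrl, squares for CL and exact Poisson 95% intervals for counting error only. Hey1 runs from 17.6 to 82.5 CPM over the secretory-like clusters in Ctrl, and Notch2 is lower in CL in 5 of 5 of them.

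Among stromal cells, 2 of 4 members passed 1.5-fold in fibroblast-like cells, beside 13.4% of 6882 genes. These were Notch2, at -0.63 [-0.94, -0.32], and Jag1, at -0.79 [-1.29, -0.31], and both were lower in CL. Notch2 passed under 11 of 13 alternative settings and Jag1 under all 13. Hes1 was at -0.30 [-0.48, -0.11] and Notch1 at -0.19. The fibroblast-like cells differed in depth, with medians of 7081 and 4984 UMIs, and their 10 markers summed to 42403 CPM in Ctrl and 28567 in CL. The part of either in these ratios was not tested.

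In cluster 19, 1 of 4 members passed 1.5-fold, beside 13.4% of 1819 genes. Notch1 was at 59.6 CPM [34.1, 96.9], from 16 UMIs in 10 of 37 Ctrl cells, and at 149 [109, 199], from 46 UMIs in 24 of 44 CL cells, a ratio of 1.32 [0.47, 2.24]. The fullest cell held 4 UMIs in Ctrl and 8 in CL. Notch3 was at -0.09 [-0.37, 0.19], Heyl at -0.14 [-0.75, 0.47] and Hes1 at -0.49 [-0.97, -0.01]. Rgs5 also differed between the libraries in this cluster, as given above, and its part in the Notch1 ratio was not tested.

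In endothelial-like cells, 1 of 3 members passed 1.5-fold, beside 25.4% of 1987 genes, a background share that leaves little to read from it. Jag1 was at -0.98 [-1.74, -0.20], from 27 UMIs in 12 of 35 cells and 36 in 19 of 51, but the mean over single cells was 117 CPM in Ctrl and 153 in CL, the other direction. Notch1 was at -0.35 [-0.87, 0.19]. The 11 endothelial markers of this class summed to 7666 CPM in Ctrl and 5887 in CL. Its luminal and milk genes stood at 29.5% and 52.9% of the droplet level, as given above. The part of either in the 2 ratios was not tested.

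In C1q-high macrophage-like cells, 2 of 3 members passed, beside 24.5% of 2163 genes. Notch1 was at 108 CPM [75.5, 149], from 36 UMIs in 23 of 41 Ctrl cells, and at 37.6 [22.6, 58.7], from 19 UMIs in 12 of 43 CL cells, a ratio of -1.52 [-2.40, -0.68]. Hes1 was at 56.9 and 94.99 CPM, or 0.74 [-0.05, 1.59], beside free RNA bounds of 31.6 and 61.1 CPM. It passed under 8 of 13 alternative settings, 13 of its 48 CL UMIs were in 1 cell, and the mean over single cells was 80.3 CPM in Ctrl and 79.6 in CL. Jag1 was at -0.22 [-0.94, 0.52]. The basal keratin Krt14 was at 114 CPM in the Ctrl cells and 9.89 in the CL cells, with 33 of the 38 Ctrl UMIs in 1 cell. In T/NK-like cells 0 of 3 members passed, beside 13.4% of 7112 genes, with Notch1 at 0.31, Notch2 at -0.21 and Hes1 at 0.02.

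**Figure D4:**
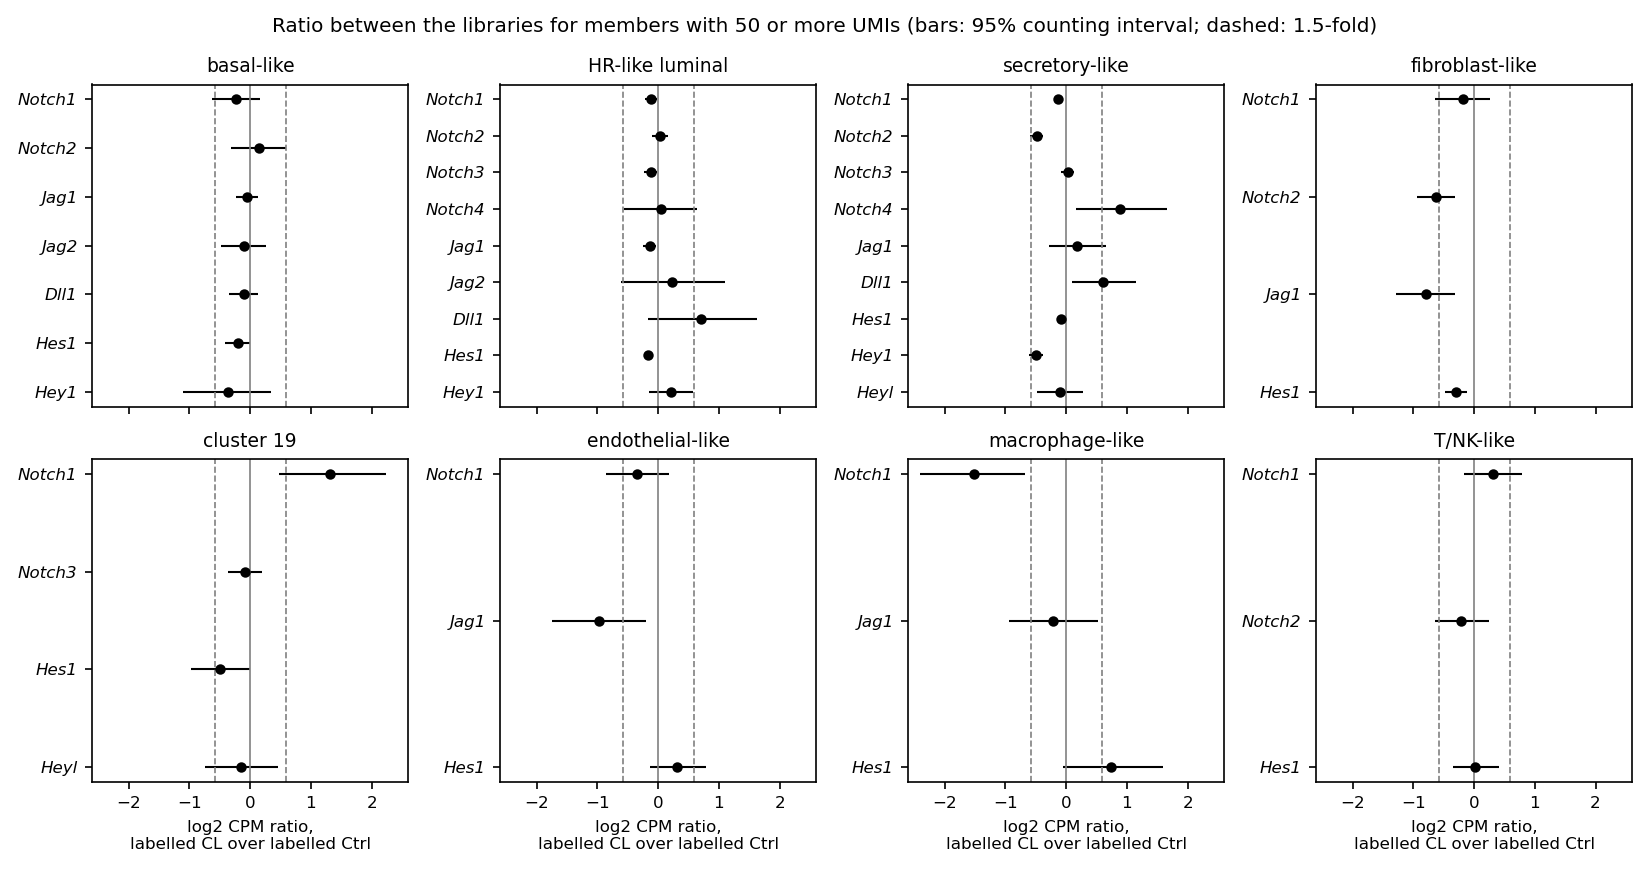
Log2 ratio of the level in the library labelled CL over that labelled Ctrl for each member and class with at least 50 UMIs in the 2 libraries together; bars are exact binomial 95% intervals for counting error only and dashed lines mark 1.5-fold. The 3 basal-like ligand ratios lie between -0.11 and -0.05, and Notch1 lies at 1.32 in cluster 19 and at -1.52 in macrophage-like cells.

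The other 47 genes of the pathway were read in the same way. In basal-like cells 0 of 27 eligible genes passed 1.5-fold, beside 9.06% of all genes. In hormone-responsive-like cells 1 of 39 was higher and 2 were lower in CL, beside 7.37%, and in secretory-like cells 1 of 35 was higher and 1 lower, beside 7%. Those were Neurl3, a ubiquitin ligase of the Neuralized family, at 0.59 [-0.07, 1.27] in hormone-responsive-like and 0.93 [0.19, 1.73] in secretory-like cells, Dtx4, a Deltex ubiquitin ligase, at -0.90 [-1.07, -0.73], from 17.5 and 9.38 CPM, Rbpjl, an RBPJ paralogue, at -0.59 [-1.11, -0.08], and Mib2, a ligase for ligand endocytosis, at -0.66 [-0.89, -0.43] in secretory-like cells, from 11.1 and 7.02 CPM. In the smaller classes 0 of 24 passed in fibroblast-like cells, 1 of 5 in cluster 19 and 5 of 28 in T/NK-like cells, beside 13.4% of all genes in each of the 3. In endothelial-like cells 1 of 6 passed beside 25.4%, and in macrophage-like cells 3 of 12 beside 24.5%.

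The levels of these genes by class set the members in place. Nrarp, a feedback inhibitor that Notch switches on, was at 585 and 642 CPM in cluster 19, 5.83-fold [4.93, 6.84] and 6.23-fold [5.37, 7.18] the secretory-like level of 100 and 103, which in turn was 9.81-fold [8.88, 10.9] and 10.1-fold [9.24, 11.1] the hormone-responsive-like level of 10.2 and 10.2. Hey2, a further Hey repressor, was at 41.0 and 42.1 CPM in cluster 19. T/NK-like cells were at 156 [133, 181] and 142 [131, 155] CPM of Nrarp and endothelial-like cells at 59.7 [28.7, 110] and 38.6 [22.5, 61.9], beside 33.2 and 41.1 in the droplets. Within secretory-like cells Hey1 was found in 6.84% and 4.75% of cells with Nrarp and in 7.38% and 5.55% of those without.

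For the other steps, the ligand Dll4 was at 83.6 and 75.0 CPM in endothelial-like cells. The protease gene Adam10 was highest, among the 8 classes, in hormone-responsive-like cells, at 325 and 271 CPM, 7.0-fold [6.63, 7.40] and 6.51-fold [6.20, 6.85] the secretory-like level. Rbpj, the DNA-binding partner of the pathway, was highest among them in macrophage-like cells, at 264 and 184 CPM, and was at 116 and 130 in basal-like cells, 2.95-fold [2.64, 3.30] and 2.91-fold [2.604, 3.25] the secretory-like level. Neurl3 was at 793 and 570 CPM in T/NK-like cells. Neurl3 is among the 10 leading genes of cluster 21, with 60 of 213 Ctrl and 72 of 734 CL T/NK-like cells. The part of this mix in the levels was not tested. Lfng, a Fringe glycosyltransferase that changes which ligand a receptor answers to, was at 68.3 and 42.3 CPM in T/NK-like cells. In macrophage-like cells Lfng was at 65.9 and 43.5.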

How the data were processed

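Droplet single-cell 3′ RNA libraries of mouse mammary cells were analysed, 1 for Ctrl and 1 for CL, and so no test between groups was made. The authors deposited unfiltered UMI counts per gene and barcode. Per the submitters' processing notes they used Cell Ranger 2.1.1 with mm10, while the file headers name Cell Ranger 4; the annotation release is not given in the sources used here. Reads of this kit keep the strand, so antisense genes can be told apart, and only the 3′ end of a transcript is counted. The matrices held 6794880 barcodes and 32285 genes. Every measured column belonged to 1 of the 2 samples.

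From each matrix as many of the fullest barcodes were taken as the deposited barcode list has lines, 7217 in Ctrl and 10555 in CL. Of these, 6297 and 9335 passed filters of 500 genes or more and no more than 15% of UMIs from mitochondrial genes. Doublets were marked by Scrublet in scanpy 1.11.5 with an expected rate of 6%, at the Ctrl threshold for both libraries, a choice made after seeing the data. This removed 5.72% and 5.45% of cells. Both libraries were clustered together with no batch correction (2000 variable genes without the 10 members and 47 other Notch genes, 30 components, 15 neighbours, Leiden resolution 1). A marker counted where it was in 10% of a cluster's cells and at least 2-fold above the median cluster, and a cluster was named from at least 3 markers when no other list came within 60% of its score. This naming rule was set after seeing the data, and names rebuilt here may differ from the study's. Of 24 clusters 21 were given a name or a working label, 2 stayed unnamed and 1 was set by division genes. Each cell of the division cluster was named by its own highest marker score and counted in the basal-like or luminal class it matched, or left unnamed. Labels were not used as cell types for a Lyz2-led cluster, where 2 of the 10 leading genes are neutrophil markers and 1 is a macrophage marker, or for cluster 19, labelled by the pericyte list, where 2 are basal markers and none is a pericyte marker.

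CPM were formed from summed UMIs per class and library, with exact Poisson 95% intervals, and CL over Ctrl ratios with exact conditional binomial intervals. A gene was eligible with 50 or more UMIs over both libraries and was past the fold at 1.5-fold in either direction. A count of 0 is given with the upper limit of its interval. Shares are means over 200 random thinnings to 2000 UMIs. Free RNA was bounded as the level of Csn3, Wfdc18, Areg, Prlr and Krt18 in a class over that in droplets of 100 to 300 UMIs (54275 and 55973 droplets), and for the luminal classes by Jag1 or Hey1. The interval and ratio code was tested on simulated counts. Likeness of pattern was the Pearson correlation of log2(CPM + 1) over classes of at least 30 cells per library. All 10 members are named; other pathway genes are named where they passed the fold in an epithelial class or had the highest level of their step, and the 3 genes of highest correlation per member are named leaving out sex-linked, haemoglobin, ribosomal, mitochondrial and unnamed genes. Members and lists were chosen with earlier results of these data known. Promoters are from RefSeq on GRCm38.p6, gene spans from GENCODE on GRCm38. Python 3.11.15, R 4.3.3 and edgeR 4.0.16 (TMM factors only) were used.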

Additional observations from a re-analysis of the deposited data

Results flagged for a closer look

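The ratio of Notch1 between the libraries went in opposite directions in 2 classes of few cells. In cluster 19 the log2 ratio of the library labelled CL over that labelled Ctrl was 1.32 [0.47, 2.24], from 16 and 46 UMIs. In C1q-high macrophage-like cells it was -1.52 [-2.40, -0.68], from 36 and 19 UMIs. The difference was not tested, because each group is 1 library. Over 11 alternatives that kept such a cluster the former ranged from 0.84 to 1.79, and over 13 alternatives the latter ranged from -2.02 to -1.27. Rgs5 in the former and Krt14 in the latter differed between the libraries too, and their part in the ratios was not tested.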

How the results depend on the processing

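No paired analysis was possible because each group is 1 library, and for the same reason no replicate could be left out. The number of members with the same highest class in both libraries was 7 and lay between 6 and 10 over 11 alternatives. The number of member ratios past 1.5-fold over the 8 classes was 9. It became 15 with a minimum of 20 UMIs, 32 with a minimum of 1 UMI, 1 with a minimum of 200 UMIs and 2 at 2-fold, and stayed between 6 and 9 under the others. In basal-like cells the count of 0 became 1 with a minimum of 20 UMIs, 3 with a minimum of 1 UMI, 1 with a minimum of 200 genes per cell and 1 with doublets kept. In hormone-responsive-like cells the count of 1 became 2 with a minimum of 20 UMIs, 2 with a minimum of 1 UMI and 2 with a mitochondrial limit of 5%. It became 0 with a minimum of 200 UMIs, at 2-fold, with a minimum of 200 genes, with doublets kept and with each cell named alone. In secretory-like cells the count of 2 became 0 with a minimum of 200 UMIs and at 2-fold, and 1 with the mean of single-cell CPM, minimums of 1000 or 200 genes, a mitochondrial limit of 5% or none, doublets kept, resolution 0.5 and each cell named alone. A higher minimum or fold lowers such counts by construction. Causes of the other moves were not tested. With the mean of single-cell CPM the ratio turned from -0.98 to 0.39 for Jag1 in endothelial-like cells and from 0.74 to -0.012 for Hes1 in macrophage-like cells. Of the 9 ratios past the fold, Jag1 in fibroblast-like cells, Notch1 in cluster 19 and Notch1 in macrophage-like cells stayed past it under all 13, 11 and 13 alternatives that gave a value, while Dll1 in secretory-like cells did so under 6 of 14. A mitochondrial limit of 5% and keeping doublets left no cluster that the pericyte list named and gave no value there. Of the 30 genes named for likeness of pattern, 28 were among the 10 most alike with log2(CPM + 10) and 16 with Spearman correlation. Among 555 values of the ratios 519 stayed within the counting interval, and among 274 of the levels 236 did. Shares moved with the thinning depth in 46 of 60 values, by construction. TMM or size factors shifted the ratios by at most 0.15 on the log2 scale, the larger shift being that of cluster 19 at -0.15.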

Other observations

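Clusters without a cell type name also carried Notch genes. In the Lyz2-led myeloid cluster, with 18 Ctrl and 211 CL cells, Notch2 was at 258 CPM [172, 373] and 105 [90.1, 122], from 28 and 175 UMIs, and Hes1 was at 73.8 [31.8, 145] and 85.3 [71.8, 101]. Notch3, Dll1 and Heyl had at most 5 UMIs there in either library. Cluster 16, whose genes were split between the endothelial and lymphatic endothelial lists, had 19 Ctrl and 10 CL cells. Its Notch1 was at 205 CPM [130, 307] and 306 [184, 478] and its Jag1 at 142 [81.4, 231] and 113 [45.3, 232]. In the division cluster, with 141 and 77 cells and luminal markers, whose cells are also counted in the epithelial class that each one's own markers gave where there was one, Hey1 was at 24.0 CPM [19.5, 29.3] in Ctrl and 10.6 [7.15, 15.1] in CL, and Notch3 was at 41.8 [35.7, 48.6] and 41.7 [34.5, 49.9]. Cluster 18, which held markers of both luminal classes and a median of 26587 UMIs per cell, had Notch1 at 79.2 CPM in both libraries. Its mean doublet score, 0.152, was the highest of the 24 clusters, and the part of doublets in this level was not tested.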
